A study of Mus musculus with 8 samples.

Results

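Osteocalcin and tissue-nonspecific alkaline phosphatase were examined in cultured mesenchymal stem cells (MSC) of mouse bone marrow. The members are Bglap, Bglap2 and Bglap3, the clustered copies of the osteocalcin gene on mouse chromosome 3, and Alpl, the alkaline phosphatase gene on chromosome 4. They were found by the Entrez gene ID written inside the array's probe identifiers, which gave 1 probe for each. They are 4 of the 8107 genes that could be named among the 46628 probes of the table. All 4 passed the detection filter, as did 17775 probes and 4225 named genes in all. The members had been chosen for their difference between the strains, so that difference is described here without a test.

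The cultures came from NOD mice with normal blood glucose, a strain that develops autoimmune diabetes, and from BALB/c mice matched for age, which do not and which the study took as its baseline. Each strain had 4 cultures, with 1 single-colour Illumina array per culture, taken at passage 4. Values given for a strain run in order from culture 1 to culture 4. The design text says that the marrow of at least 5 mice was pooled to limit variability, while the titles name single mice. The design also mentions exposure to an inflammatory cytokine (IL-1beta) and, as a separate check of potency, osteogenic induction. The labels name neither for any of the arrays, and they give no age or sex. The design text numbers the NOD samples first, the labels BALB/c, and the labels were followed.

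Osteocalcin is a small protein that osteoblasts secrete into bone matrix. Carboxylation by a vitamin K-dependent enzyme lets it bind calcium and bone mineral. Bglap and Bglap2 are the copies known from bone, and Bglap3 is an osteocalcin-related copy known from tissues outside bone. Tissue-nonspecific alkaline phosphatase sits on the outer cell membrane and splits pyrophosphate, an inhibitor of mineral growth. In the osteoblast lineage alkaline phosphatase is regarded as an early marker and osteocalcin as a late one, and both are used to follow bone formation by MSC in culture.

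The promoters are shown as a description of the genes, and whether they bear on how the levels moved was not tested. The RefSeq promoter table of build GRCm38.p6 held windows for 3 of the 4 genes, namely Bglap, Bglap3 and Alpl. All 3 printed windows lie on the minus strand and hold the 250 bases before an annotated start. Capitals mark the letters ACCACA (the core bound by Runx factors), TACATCA (part of the osteoblast element OSE1) and TATAAA, searched on both strands. These marked letters do not overlap each other.
Bglap, chr3:88384467-88384716: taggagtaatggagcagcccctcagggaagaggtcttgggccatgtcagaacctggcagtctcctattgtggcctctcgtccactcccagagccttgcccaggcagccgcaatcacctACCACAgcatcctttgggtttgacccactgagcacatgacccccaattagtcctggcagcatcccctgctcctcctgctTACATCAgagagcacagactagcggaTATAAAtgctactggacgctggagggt
Bglap3, chr3:88372742-88372991: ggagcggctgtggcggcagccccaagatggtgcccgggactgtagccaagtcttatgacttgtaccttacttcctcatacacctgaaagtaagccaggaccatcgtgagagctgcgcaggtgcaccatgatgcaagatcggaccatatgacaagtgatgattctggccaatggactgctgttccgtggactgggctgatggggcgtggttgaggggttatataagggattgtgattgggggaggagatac
Alpl, chr4:137796385-137796634: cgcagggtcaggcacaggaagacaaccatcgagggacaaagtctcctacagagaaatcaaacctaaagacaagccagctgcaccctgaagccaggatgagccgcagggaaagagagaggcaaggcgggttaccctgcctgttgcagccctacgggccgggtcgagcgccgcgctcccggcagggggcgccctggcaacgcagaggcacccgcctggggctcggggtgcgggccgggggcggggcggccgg

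In the Bglap window ACCACA began 132 bases, TACATCA 53 bases and TATAAA 27 bases before the start. Of 32851 windows of the same length in the table, 14.0% held ACCACA, 2.3% TACATCA and 12.4% TATAAA. None of these exact letters was in the printed windows of Bglap3 and Alpl, whose genes have 3 and 2 annotated windows. Only exact letters were searched. The printed Bglap3 window holds TATATAA near its end, letters close to TATAAA that the search did not count. The second Alpl window held TATAAA on the opposite strand, and neither of the other Bglap3 windows held any of them. The E-box letters CANNTG were in all 6 windows and in 66.2% of all windows. The GC content was 56.4% in Bglap, 54.4% in the printed Bglap3 window and 68.4% in the printed Alpl window, against a median of 52.4% over all windows. A match of letters describes the window and does not show binding.

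All osteocalcin probes were bright on every NOD array and dim or undetected on every BALB/c array. Their level, the log2 of the background-corrected and quantile-normalized intensity, was 59.3 to 74.8 times as high in NOD cultures when taken back to a linear scale. The BALB/c side of these folds is partly background, since Bglap and Bglap3 were detected on 2 of 4 BALB/c arrays and Bglap2 on 3, so they are estimates that move with the background correction. Alpl was detected in all 8 cultures and was 7.51 times as high in NOD. For each of the 4 genes the lowest NOD culture lay above the highest BALB/c culture, as it did for 8.69% of the 4225 named genes. The opposite arrangement held for 10.2%. By the limma test described below, 9.14% of named genes were called in either direction. The members were picked on this contrast, so their count is not evidence beyond the choice itself. In bulk RNA, fewer cells of a type and less RNA per cell cannot be told apart.

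Bglap encodes osteocalcin of bone. Its deposited signal before normalization was 56.7, 130.0, 49.3 and 90.2 in BALB/c. The NOD signals were 4524, 907, 13501 and 6292. The probe was not above background in BALB/c cultures 1 and 3, with detection p-values of 0.197 and 0.471. It passed narrowly in cultures 2 and 4, with detection p-values of 0.0193 and 0.0168, and at 0 in every NOD culture. On the log2 scale the BALB/c levels were 5.14, 6.22, 4.97 and 6.31 and the NOD levels 12.10, 9.55, 13.27 and 12.43. The means were 5.66 ± 0.70 in BALB/c and 11.84 ± 1.61 in NOD (SD, n = 4 each), a difference of 6.17. NOD culture 2 was the lowest of its strain and still stood 3.24 above the highest BALB/c culture.

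Bglap2 is the neighbouring bone copy. Its BALB/c levels were 5.62, 6.13, 4.94 and 7.88. Its NOD levels were 12.64, 10.31, 13.73 and 12.78. The probe was detected on 3 of 4 BALB/c arrays, culture 3 being the exception, and BALB/c culture 4 was clearly above the others. Mean levels were 6.14 ± 1.26 and 12.36 ± 1.45, which differ by 6.22.

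Bglap3, the osteocalcin-related copy, ran nearly the same course. Its levels were 5.35, 5.98, 4.92 and 7.44 in BALB/c, with cultures 2 and 4 detected. The NOD levels were 11.87, 9.87, 13.24 and 12.26. The means of 5.92 ± 1.10 and 11.81 ± 1.42 differ by 5.89. Again NOD culture 2 was lowest and NOD culture 3 highest, and the strains did not overlap.

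Alpl varied widely among the BALB/c cultures, and its strains came close to overlap. Its signal before normalization was 347, 196, 85.5 and 420 in BALB/c and 934, 1221, 4524 and 2047 in NOD. After normalization the BALB/c levels were 8.63, 7.11, 5.71 and 9.09. Those of NOD were 9.71, 9.99, 11.70 and 10.79. BALB/c cultures 1 and 4 were high and culture 3 was low, near background at a detection p of 0.0343. The lowest NOD culture exceeded the highest BALB/c culture by only 0.61, against a BALB/c range of 3.38. Mean levels were 7.64 ± 1.54 and 10.54 ± 0.89, a difference of 2.91.

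**Figure D1:**
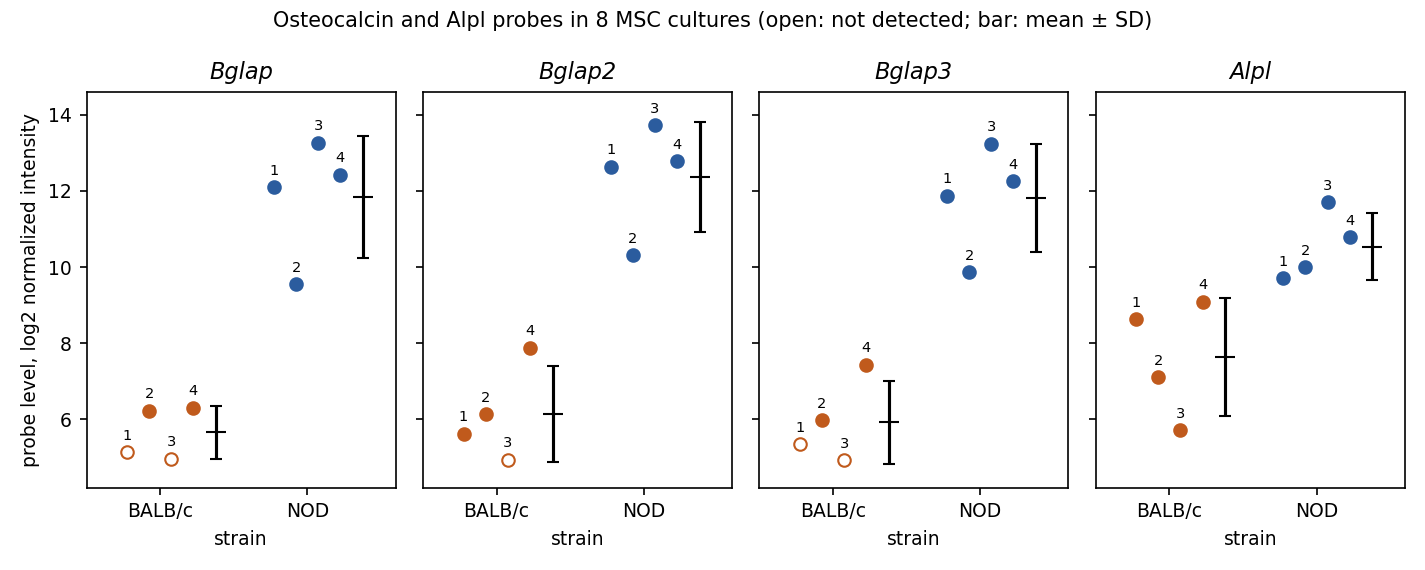
Level of each probe (y axis, log2 normalized intensity) in the BALB/c and NOD cultures, numbered by culture, with open points where the probe was not detected and bars for mean ± SD of 4 cultures. The osteocalcin probes lie between 4.92 and 7.88 in BALB/c and between 9.55 and 13.73 in NOD, while the 2 strains are only 0.61 apart for Alpl.

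The sizes of these differences rested on the handling of the dim BALB/c signals. The mean of the 3 osteocalcin probes was 68.4 times as high in NOD, 41.0 times in the authors' deposited normalized intensities and 42.2 times with an offset of 50. It was 19.7 times as high when the deposited detection p-values entered the background fit uncorrected, where Alpl was 4.73 times as high. Without NOD culture 2 osteocalcin was 112 times as high (Bglap 124, Bglap2 122 and Bglap3 93.6). Without BALB/c culture 3 Alpl was 4.84 times as high, and without BALB/c cultures 2 and 3, its lowest in that strain, 3.23 times. Osteocalcin without those 2 cultures was 53.5 times as high.

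Within each strain the cultures differed among themselves more in these genes than in most. In NOD the SD of Bglap, Bglap2 and Bglap3 was larger than that of 99.8%, 99.8% and 99.7% of the 17775 tested probes, whose median SD was 0.29. The SD of Alpl in NOD was larger than that of 96.9%. In BALB/c, with a median SD of 0.48, the shares were 69.8% for Bglap, 92.2% for Bglap2, 88.3% for Bglap3 and 96.3% for Alpl. From the lowest to the highest NOD culture the levels of Bglap, Bglap2 and Bglap3 spanned 13.2, 10.7 and 10.3 fold, and that of Alpl 3.98 fold. Across BALB/c Alpl spanned 10.4 fold. No span is given for osteocalcin there, because none of its probes was detected in culture 3, and for the same reason its BALB/c SDs are cut short by background.

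The 3 osteocalcin probes moved together from culture to culture. In NOD their deviations from the strain mean lay within 0.07 to 0.35 of each other in every culture. In BALB/c they lay within 0.05, 0.57, 0.52 and 1.09 of each other, the largest gap being Bglap below its copies in culture 4. The copies are close in sequence and the probe sequences are not used here, so whether each probe reads its own copy alone cannot be told from these values.

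Alpl did not follow osteocalcin in every culture. Mean osteocalcin deviated from its strain mean by -0.54, 0.20, -0.96 and 1.30 in BALB/c. In NOD it deviated by 0.20, -2.09, 1.41 and 0.49. The Alpl deviations were 0.99, -0.52, -1.93 and 1.46 in BALB/c and -0.84, -0.56, 1.15 and 0.24 in NOD. Both were highest in culture 4 of BALB/c and culture 3 of NOD, and both were lowest in BALB/c culture 3. They took opposite signs in BALB/c cultures 1 and 2 and in NOD culture 1. In BALB/c culture 1 Bglap and Bglap3 were not detected and Bglap2 passed narrowly (detection p of 0.197, 0.0767 and 0.0405). The osteocalcin deviation there is largely background. In NOD culture 2 osteocalcin was 2.09 below its strain mean and Alpl 0.56 below. The strain difference of osteocalcin exceeded that of Alpl by 3.19 on the log2 scale, an estimate that ran from 2.06 with uncorrected detection p-values to 4.05 without BALB/c cultures 2 and 3. Over the 8 cultures the deviations of Alpl had a Pearson r of 0.46 with Bglap, 0.68 with Bglap2 and 0.66 with Bglap3. Among the osteocalcin copies r was 0.91 to 0.99. Within BALB/c alone the values for Alpl were 0.45, 0.75 and 0.70, and within NOD 0.66, 0.66 and 0.73. The lowest r among the copies was 0.84 in BALB/c and 0.99 in NOD. These coefficients describe the cultures and were not tested.

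**Figure D2:**
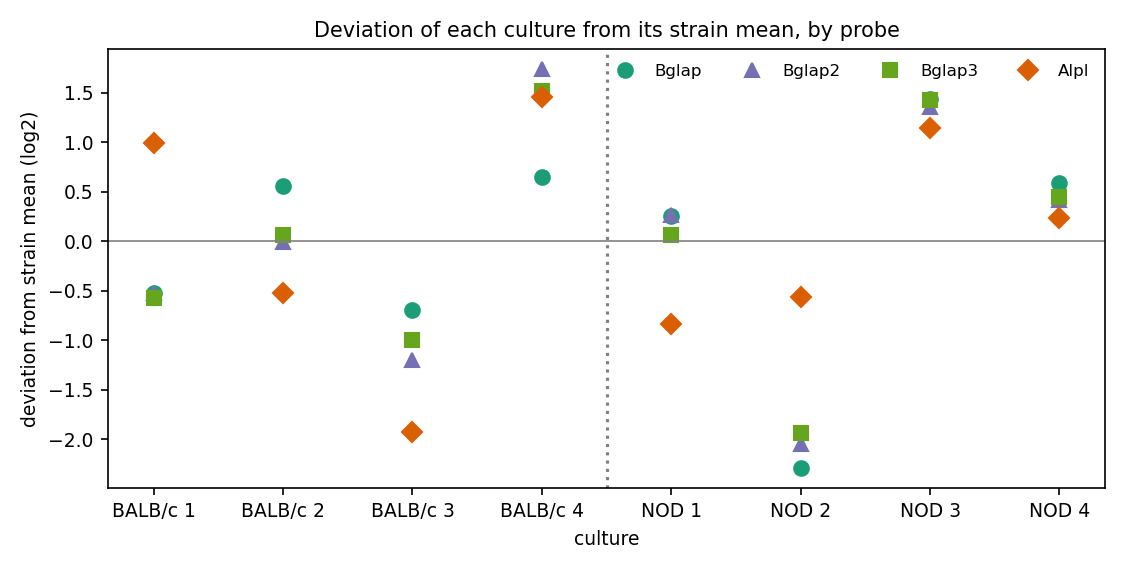
Deviation of each culture from the mean of its own strain (y axis, log2) for the 4 probes, BALB/c cultures left and NOD cultures right of the dotted line. The osteocalcin symbols lie close together in NOD, from -2.09 on average in culture 2 to 1.41 in culture 3. Alpl departs from them most in BALB/c culture 1, where Bglap and Bglap3 were not detected, and in NOD cultures 1 and 2.

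Named genes whose deviations from the strain means were most like those of osteocalcin over the 8 cultures were ranked by Pearson r, among 4221 genes. These were Slain2, a microtubule-binding protein (0.960), Ctcflos (0.938), the electron carrier cytochrome c gene Cycs (0.937), Hbs1l, a ribosome rescue factor (0.932), the small GTPase Rap1b (0.926) and the collagen gene Col8a2 (0.924). The values are the highest of many and describe the ranking only. Of these 6, Col8a2 alone differed between the strains (difference 4.56 ± 0.48 SE, limma adjusted p = 0.000667). Its levels were 9.74, 8.73, 11.20 and 10.45 in NOD, in the order of osteocalcin, the likeness it was picked for. In BALB/c they were 5.09 to 5.95, near background, which leaves the size of its difference uncertain. The strain differences of the other 5 ran from -0.26 to 0.17, and Ctcflos stayed near background at 5.58 to 5.97.

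For Alpl the most alike were Arhgap29 (0.972), the cytochrome P450 gene Cyp2c23 (0.972), Hsd17b12, an enzyme of fatty acid elongation (0.971), and the Golgi stacking protein gene Gorasp2 (0.970). None of these 4 was called between the strains, with differences of -0.63 to 0.55.

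Other genes of the osteoblast pathway were taken from 5 lists chosen by role, 61 genes in all. Of these, 17 had a named probe and 13 passed the detection filter. By limma's moderated test with Benjamini-Hochberg adjustment over all 17775 probes, 3 were higher in NOD, none was lower and 10 were not called. Over all 4225 named genes 4.14% were called higher and 4.99% lower. The median difference of the 13 genes was 0.81, against -0.02 over all named genes. At an unadjusted p under 0.05 there were 6 of the 13, all higher in NOD, and 1166 of the 4225 named genes.

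Receptors and signals to osteoblasts held most of the calls, 2 of 7 tested genes. Fgfr1, a fibroblast growth factor receptor, rose 4.22-fold in NOD (difference 2.08 ± 0.29 SE, limma adjusted p = 0.00347). Its levels were 6.69 to 7.43 in BALB/c and 8.42, 9.69, 9.11 and 9.04 in NOD. Within NOD, Fgfr1 was highest in culture 2, where osteocalcin was lowest. Lrp6, a co-receptor for Wnt ligands, rose 3.58-fold (1.84 ± 0.37 SE, limma adjusted p = 0.0191), from 6.06 to 7.79 in BALB/c to 8.38 to 9.28 in NOD. Its relative Lrp5 had a difference of -0.72 ± 0.46 SE and was not called (limma adjusted p = 0.365). It was called lower in NOD when arrays were weighted (limma adjusted p = 0.0069) and when BALB/c cultures 2 and 3 were left out (0.0106).

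Fgfr2 had a difference of 2.10 ± 0.57 SE and missed the threshold (limma adjusted p = 0.0558), with BALB/c culture 2 at 7.13 above NOD culture 2 at 6.94. Without BALB/c culture 2 it was called (limma adjusted p = 0.0148), as in 5 of its 19 alternative fits. The parathyroid hormone receptor gene Pth1r had a difference of 1.51 ± 0.57 SE (limma adjusted p = 0.141). It was detected on 2 of 4 BALB/c arrays, cultures 1 and 4 at 6.85 and 7.56, which were the cultures where Alpl was also high. Bmpr1a, a receptor for bone morphogenetic proteins, was read by 2 probes with differences of 0.36 and 1.33, neither of them called (limma adjusted p = 0.263 and 0.185). The vitamin D receptor gene Vdr was read by 2 probes of opposite sign, 0.83 and -0.55, neither of them called.

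Bone matrix genes held 1 call among 4 tested. Col1a2, a chain of type I collagen, rose 2.32-fold in NOD (1.22 ± 0.31 SE, limma adjusted p = 0.047). Its levels were 9.27, 9.38, 8.08 and 9.36 in BALB/c and 10.05 to 10.47 in NOD. The partner chain gene Col1a1 was bright in both strains, at 13.62 ± 0.67 in BALB/c and 14.05 ± 0.21 in NOD, and was not called (0.42 ± 0.33 SE, limma adjusted p = 0.458). Spp1, the osteopontin gene, was also bright and was not called (-0.18 ± 0.16 SE, limma adjusted p = 0.508), with levels of 13.59 to 13.81 in NOD and 13.83 to 13.95 in BALB/c. Serpinh1, a collagen chaperone gene, was not called (-0.08 ± 0.17 SE).

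The calls of Col1a2 and Lrp6 were fragile. Col1a2 lost its call without BALB/c culture 1 or 4 or without any single NOD culture (limma adjusted p = 0.0892 to 0.124). The same held when the labels' replicate number was a block (limma adjusted p = 0.13). Col1a2 was also not called with no filter on dim probes (limma adjusted p = 0.108) or among probes detected on all 8 arrays (0.0533). Lrp6 lost its call without BALB/c culture 1 or 4 or without NOD culture 1, 3 or 4 (limma adjusted p = 0.0568 to 0.0728). It was also not called with the block (limma adjusted p = 0.105) or with no filter on dim probes (0.0614). Fgfr1 was called in all 20 alternative fits (limma adjusted p = 0.000172 to 0.0482). With uncorrected detection p-values Fgfr1 was 2.04-fold and Lrp6 1.78-fold higher.

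Of 11 transcription factors of the lineage, 1 had a named probe and none was tested. Runx2, the master regulator of osteoblast formation, was read by 2 probes that were detected on 0 and 1 of 8 arrays, and its brighter probe stayed at 5.23 to 5.65 in all cultures. That is a bound set by background and not a measured level. Sp7, Ibsp and Sparc had no named probe here.

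Among genes of mineralisation, Mgp, which encodes an inhibitor of calcification that is also carboxylated, was bright and not called (0.81 ± 0.32 SE, limma adjusted p = 0.154). It was called without BALB/c culture 3 (limma adjusted p = 0.0432). Its levels were 13.00, 13.83, 14.15 and 12.74 in BALB/c and 14.09 to 14.36 in NOD. In BALB/c the cultures with more Alpl, 1 and 4, were those with less Mgp. Furin, a protease that cuts propeptides, was the one tested gene of the vitamin K and processing list, and it was not called (-0.17 ± 0.36 SE).

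**Figure D3:**
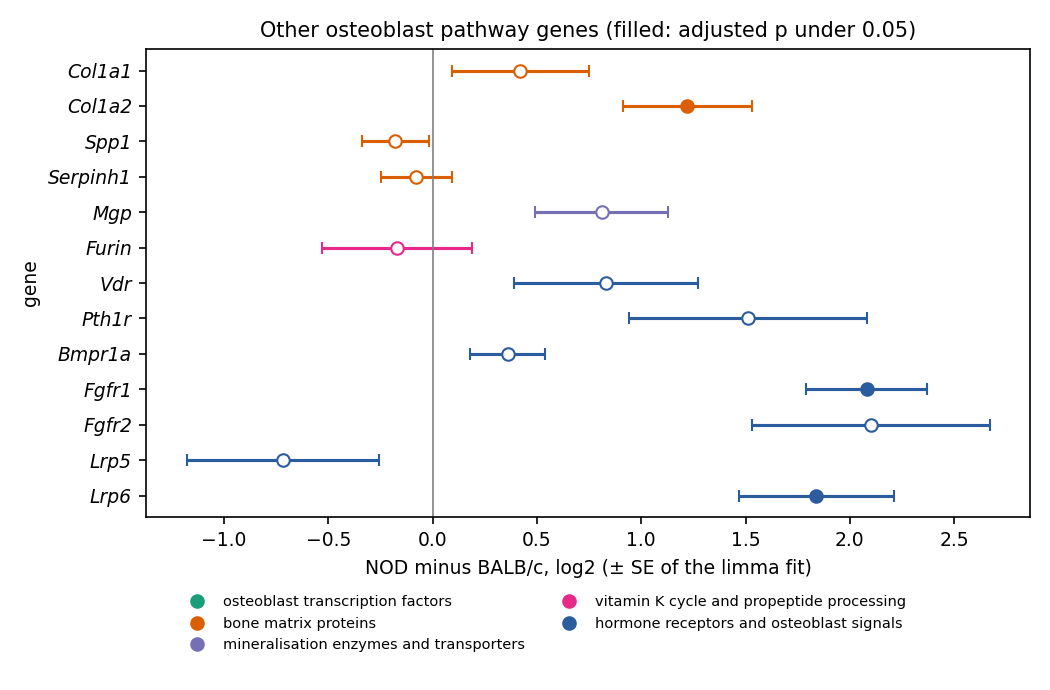
Difference between strains (x axis, log2 level in NOD minus that in BALB/c, bars for the SE of the limma fit) for the 13 tested pathway genes, coloured by list and filled where the adjusted p was under 0.05. Fgfr1, Lrp6 and Col1a2 are filled on the side of NOD, and none is filled on the side of BALB/c.

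The nearest genes with a tested probe on each side of the members were also compared. They lie 0.075 to 388 kilobases from the osteocalcin cluster and 11.9 to 420 kilobases from Alpl, so not all adjoin them. On the lower side of the osteocalcin cluster the nearest genes with a tested probe were Paqr6, Cct3 and Nes, and on the higher side Pmf1, Slc25a44 and Lmna. None of these 6 was called, with differences of -0.29 to 1.13, while the osteocalcin probes between them differed by 5.89 to 6.22. Pmf1, a kinetochore protein gene, came nearest to the threshold (0.99 ± 0.30 SE, limma adjusted p = 0.0761). Around Alpl the nearest were Rap1gap, Usp48 and Hspg2 on one side and Ece1, Eif4g3 and Hp1bp3 on the other. They had differences of both signs, from -1.14 for Usp48 to 1.68 for Rap1gap, and none was called.

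**Figure D4:**
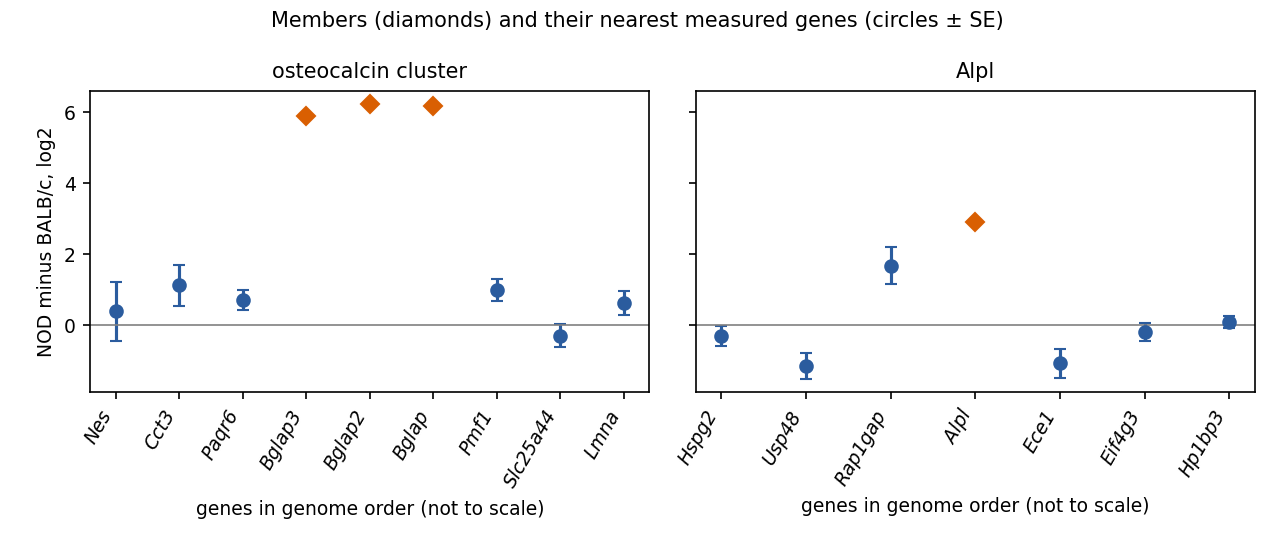
Difference between strains (y axis, NOD minus BALB/c, log2) of the members (diamonds) and of the nearest genes with a tested probe (circles, bars for the SE), in genome order and not to scale. The neighbours lie between -1.14 and 1.68, below the members of their locus.

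Markers of other cell types varied between the BALB/c cultures. Of 14 macrophage and leukocyte genes, 10 had a probe, 12 probes in all. Their summed level on the linear scale was 764, 3206, 418 and 2352 in BALB/c, where 3, 2, 1 and 5 probes were detected. In NOD 0 or 1 probes were detected. Within BALB/c, where its levels lay at or near background, osteocalcin was highest in cultures 4 and 2, the cultures with the larger sums. In NOD osteocalcin was far higher and the sums were small. The NOD sums were 401, 387, 643 and 440, mostly background, with 0, 0, 1 and 1 probes detected. The sum of BALB/c culture 2 came chiefly from 1 of the 2 probes of Lyz2, the lysozyme gene. The levels of that probe were 7.36, 11.42, 5.20 and 9.85 in BALB/c and 5.57, 4.92, 8.08 and 6.66 in NOD. In NOD that probe was detected on 2 arrays, and the NOD sums fall in its order, which is also the order of osteocalcin. The other Lyz2 probe was detected on no array. Cd68, a macrophage gene, was detected on all BALB/c and no NOD arrays and was highest in BALB/c culture 4 at 9.09, with culture 2 at 6.89. C1qb, a complement gene of macrophages, was likewise high in culture 4 at 8.52 and not in culture 2 at 5.61. Cd68 and Lyz2 were the 2 tested genes of this list, and neither was called (limma adjusted p = 0.0615 and 0.331). Ptprc, the pan-leukocyte gene, Itgam, Cd52, Cd3e and Mpo were detected on no array. Without BALB/c cultures 2 and 4 osteocalcin was 116 times and Alpl 10.3 times as high in NOD. Those were the BALB/c cultures highest in osteocalcin, so leaving them out had to raise its fold. In the BALB/c cultures left, 1 and 3, Bglap and Bglap3 were not detected, and no conclusion about leukocytes is drawn. A part of leukocytes in the spread among cultures was not tested.

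The single osteoclast probe and the 2 endothelial probes were detected on no array. Of 10 stromal markers, 3 were tested and 1 was called. Vcam1, an adhesion molecule of marrow stroma, rose 2.20-fold in NOD (limma adjusted p = 0.00944). Its call was lost without NOD culture 4 (limma adjusted p = 0.0578), without BALB/c cultures 2 and 4 (0.0534) and with the replicate block (0.0821). Eng and Cd44 had differences of -0.65 and 0.27 and were not called (limma adjusted p = 0.569 and 0.55). Cxcl12 was detected on no array. Across all tested probes the arrays correlated at 0.927 to 0.985 within NOD, 0.842 to 0.983 within BALB/c and 0.812 to 0.906 between strains. The median signal before normalization was 56.5 to 74.9 in BALB/c and 68.7 to 78.6 in NOD, and 36.1% to 39.3% of probes were detected on each array.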

How the data were processed

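The deposited table gave the mean bead signal intensity of each probe on 8 arrays, not normalized per the file headers, with a detection p-value against the array's negative controls (1603 by the step of the p-values). The authors' second table held normalized intensity on a linear scale, by a method not given in the sources used here. Computed here, in R 4.3.3 with limma 3.58.1, were normexp background correction with an offset of 16, log2 values and quantile normalization. On each array 4 or 5 bright probes had a deposited p-value above 0 but under 1 step; these were set to 0 before the background fit. Probes detected (p-value under 0.05) on at least 4 of 8 arrays were tested, with no covariate, by lmFit and eBayes, and 365 control, reporter, ribosomal and repeat probes were left out. Named probes numbered 9806, by gene ID or accession in RefSeq GRCm38.p6, and the brightest probe stood for a gene. Promoters were scanned in Python 3.11.15 and come from RefSeq.

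Genes were named in the text by a rule: every member, every called list gene and the 3 brightest tested genes of each pathway list, a few standard bone genes, the 6 and 4 genes most like osteocalcin and Alpl, and the 3 nearest tested genes on each side. Fgfr2, Pth1r, Vdr, the fat, cartilage and blood cell genes and the stromal genes other than Vcam1 fall outside that rule. They were named after their values were seen. A list gene is not reported here and is left out of the counts. Members and lists were chosen with earlier results of these data known. Replicate numbers did not pair the samples. P-values weigh the strain difference against the spread between the 4 cultures of each strain. Whether a culture stands for a single mouse or for pooled marrow is not settled. The number of arrays limits precision. The fit was tested on simulated data. No source names the array model, the scanner software or which arrays shared a chip, so no batch could be set beside the strains.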

Additional observations from a re-analysis of the deposited data

Results flagged for a closer look

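None of the 4 osteocalcin and Alpl probes had a culture that passed Dixon's critical value within its strain. With 4 cultures that does not show that none lay far off. NOD culture 2 was well below the other NOD cultures for every osteocalcin probe, and the fold of osteocalcin depended on it. Of 100 groups of 4 cultures examined, over members, list genes and the other genes named, 8 had 1 culture set apart beyond Dixon's critical value for 4 samples, where chance gives about 1 in 20. In BALB/c culture 2, Cebpb and Usp48 were low at 10.60 and 8.31. In BALB/c culture 3, Col1a2 was low at 8.08, Serpinh1 was low at 13.91 and Eng was high at 10.05. In NOD culture 1, Col1a1 was low at 13.74 and Nes high at 10.57, and in NOD culture 2 Eif4g3 was high at 11.21.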

How the results depend on the processing

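The osteocalcin difference of 6.10 was 4.30 with uncorrected detection p-values, and its excess over Alpl fell to 2.06 from 3.19. Under the other alternatives that could give them both moved by less than the SD between cultures. Leaving out single cultures gave 5.61 to 6.81 for osteocalcin, 2.27 to 3.38 for Alpl and 2.68 to 3.71 for the excess. The 3 pathway calls became 1 with no filter on dim probes, 1 with the replicate block, 6 with array weights (5 higher and 1 lower, in a fit that called 2206 of 4225 genes), 6 (5 higher and 1 lower) without BALB/c cultures 2 and 3, and 1 to 4 without single cultures. In the all-gene count, 386 became 129 with the block, 216 among probes detected on all 8 arrays, 1427 without BALB/c cultures 2 and 3, and 134 to 797 without single cultures. Same-numbered cultures deviated with correlations of -0.33, -0.64, -0.05 and 0.08, so the block pairs nothing known. Small differences changed sign: Furin read 0.01 with median scaling and -0.51 to 0.07 without single cultures (0.07 without BALB/c culture 1), Serpinh1 0.01 in the authors' table and Col1a1 -0.05 without BALB/c cultures 2 and 3. Median scaling moved the median of all genes to 0.12 from -0.02 and turned the calls to 229 higher and 148 lower, from 175 and 211. The causes were not tested. The alternative without BALB/c cultures 2 and 4 was added after seeing the data. Background limits the BALB/c osteocalcin levels, which lie at or near it.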

Other observations

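MSC can also form fat and cartilage, and the lists for those lineages held no call. Of 10 adipocyte genes, 3 were tested. Cebpa, Cebpb and the lipoprotein lipase gene Lpl had differences of 0.35, 0.14 and -0.58, and none was called by limma (adjusted p = 0.529 to 0.883). Fabp4 and Cd36, genes of mature fat cells, were detected on no array. Of 10 chondrocyte genes, only Sox5 was tested. It read 1.73 and 0.94 by its 2 probes, neither of them called (limma adjusted p = 0.139 and 0.106). Both probes of Col2a1, the main cartilage collagen, were detected on no array.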
